A study of Mus musculus with 16 samples.

Results

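The pancreas of unstimulated mice with a hypomorphic Adam17 allele was compared with that of wild-type littermates, using 8 of the 16 UMI-counted RNA sequencing libraries of the series: 4 from Adam17ex/ex mice (Adam17ex) and 4 from wild-type mice (WT), all given phosphate-buffered saline (PBS). The members were chosen by the genotype and treatment labels alone, and all genes were considered. Per the labels, the strain was C57BL/6J, the mice were 6 to 8 weeks old, and 50 µl of PBS was injected into the peritoneum hourly, 7 times, with the tissue taken 1 h after the last injection. The allele is hypomorphic, so some ADAM17 can remain. All 4 WT PBS libraries were from females, whereas Adam17ex PBS replicates 1 and 3 were from males and replicates 2 and 4 from females. The labels give neither the hour of day at which tissue was taken nor the meaning of the 4-digit codes the libraries carry. The other 8 libraries, 4 per genotype, came from mice given cerulein at 50 µg per kg on the same schedule, a peptide that overstimulates acinar cells and causes pancreatitis. Of these, 1 WT and 2 Adam17ex libraries were from males. The cerulein libraries shared the model's estimates of spread and of the sex effect, and supplied the genotype effect in the inflamed organ.

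ADAM17 is a membrane metalloprotease that cuts the extracellular part off other membrane proteins, among them tumour necrosis factor, the interleukin-6 receptor and several ligands of the epidermal growth factor (EGF) receptor. It needs the iRhom proteins to mature and is inhibited by TIMP3. Most pancreatic tissue consists of acinar cells, which make digestive enzymes in an extensive endoplasmic reticulum (ER), with ducts, islets, vessels and stroma between them. These cells also run a circadian clock. In that loop BMAL1 (gene Arntl) and CLOCK activate genes through E-box sequences, including the Per and Cry repressors, the nuclear receptors REV-ERBα and REV-ERBβ (Nr1d1, Nr1d2) and the D-box binding factors DBP and TEF. The REV-ERBs in turn repress Arntl and genes such as Nfil3 and Cry1.

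Of the Adam17ex PBS libraries 3 stood apart. Replicates 1 to 3 held 492878, 475952 and 455547 UMIs, and 9.03%, 7.85% and 8.10% of these fell on ribosomal RNA genes. Replicate 4 held 1009634 UMIs with 3.20% ribosomal RNA, within the range of the WT PBS libraries (859573 to 1345643 UMIs and 2.03% to 3.80%). On the first principal component of the 8 libraries, with 30.1% of the variance, replicates 1 to 3 lay at 39.8, 23.5 and 32.6, replicate 4 at -8.20 and the WT libraries between -25.3 and -15.4. Replicate 3 also held the lowest share of digestive enzyme transcripts, 31.2% of UMIs against 39.4% to 42.4% in the other 7 libraries, and the highest share of the macrophage marker list, 0.184% against at most 0.0627%. For many genes below the value of replicate 4 is therefore given, and for some lists the count without replicates 1 to 3. Genes printed with a fold change alone, and the other lists, are given without these.

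**Figure D1:**
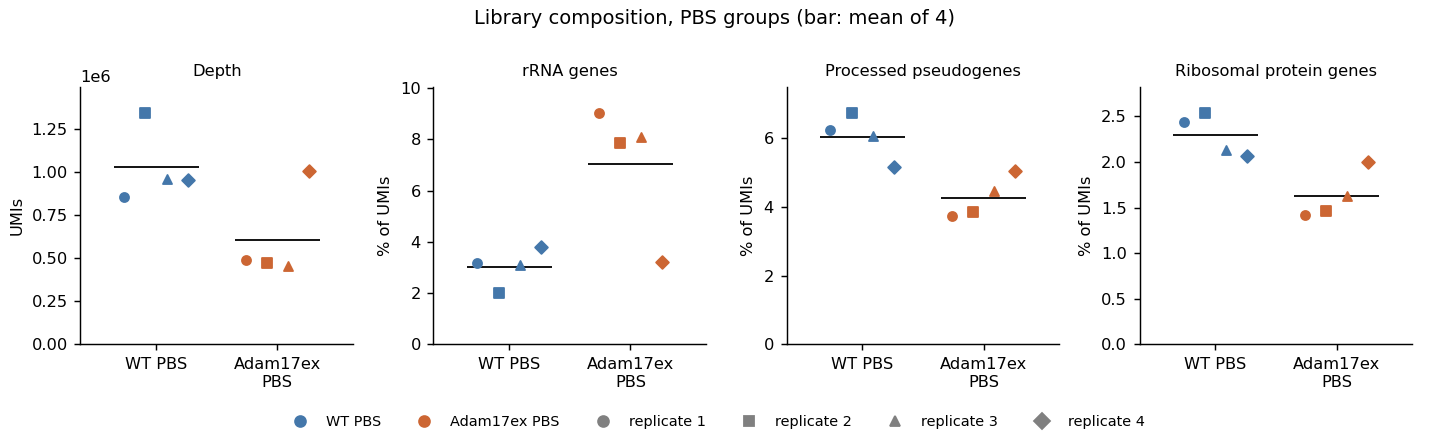
Depth in UMIs, and the percentage of UMIs on ribosomal RNA genes, processed pseudogenes and cytosolic ribosomal protein genes, in each of the 8 PBS libraries, with marker shape for the replicate and a bar at the mean of 4. Adam17ex replicates 1 to 3 hold at most 492878 UMIs and at least 7.85% ribosomal RNA, while replicate 4 lies among the WT libraries in both.

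Against this background 112 of 8236 tested genes (1.36%) passed edgeR's quasi-likelihood test at a Benjamini-Hochberg adjusted p under 0.05. Of these, 52 (0.631% of tested genes) were higher in Adam17ex and 60 (0.729%) lower. Of the 79 protein-coding genes among them 48 were higher and 31 lower, and 28 of the lower genes were processed pseudogenes. All 4 Adam17ex libraries lay on one side of all 4 WT libraries for 99 of the 112. These genes were selected for a difference between the same groups, so nothing is read from that count. Across all tested genes all 4 lay above in 343 (4.16%) and all 4 below in 514 (6.24%). Replicate 4 lay beyond the 4 WT libraries in 52 of 52 higher and 60 of 60 lower genes, although these calls were made with it included. The number called rested on single libraries. It was 46, 72, 30 and 36 without WT replicate 1, 2, 3 or 4, and 90, 34, 33 and 370 without Adam17ex replicate 1, 2, 3 or 4. Without Adam17ex replicates 1 to 3 together it was 15, of which 9 were among the 112, and with the ribosomal RNA share as a covariate it was 21.

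The clearest group was the circadian clock. Of 19 genes on the clock list 16 were tested, 7 were higher in Adam17ex (background 0.631%) and 2 lower (background 0.729%). The median log2 fold change of the list was 0.98, against 0.03 over all tested genes. Levels below are CPM, the count scaled to library totals adjusted by TMM factors, given for replicates 1 to 4 in order. Fold changes are log2 values from the model, which also fits sex. Each is given ± SE, taken as its size divided by the square root of the quasi-likelihood F.

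Nr1d1 (ENSMUSG00000020889, GRCm38 chromosome 11, 98767932 to 98775333), which encodes REV-ERBα, had no UMI in any WT PBS library and stood at 18.2, 12.9, 10.0 and 19.2 CPM in Adam17ex. With 36 UMIs against a limit of 3 over the WT group, it was at least 21-fold higher (edgeR adjusted p = 0.0114). Its relative Nr1d2 (chromosome 14, 18204054 to 18239127) was at 8.23, 10.4, 4.2 and 6.13 CPM in WT and at 54.6, 46.5, 38.2 and 61.6 CPM in Adam17ex, or 2.77 ± 0.38 on the log2 scale (edgeR adjusted p = 0.000995). For both receptors the groups did not overlap, and Adam17ex replicate 4 was the highest library.

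Dbp (ENSMUSG00000059824, chromosome 7, 45705088 to 45710203), a transcription factor that binds D-boxes and is a standard output gene of the clock, was at 9.40, 3.72, 2.10 and 0 CPM in WT and at 78.0, 72.3, 50.2 and 106 CPM in Adam17ex. All Adam17ex libraries lay far above all WT libraries, and the difference of 4.53 ± 0.44 had the smallest adjusted p of the comparison, 3.24e-06 in edgeR. The related factor Tef was at 34.1, 23.1, 33.6 and 24.5 CPM in WT and at 112, 62.0, 94.4 and 86.9 CPM in Adam17ex, a rise of 1.41 ± 0.27 (edgeR adjusted p = 0.0130) with no overlap.

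Of the repressor arm, Per3 (chromosome 4, 151003652 to 151044665) was at 5.88, 1.49, 3.15 and 2.45 CPM in WT and at 39.0, 25.8, 26.1 and 26.3 CPM in Adam17ex, or 3.21 ± 0.53 on the log2 scale (edgeR adjusted p = 0.00446). Ciart, a repressor of the BMAL1 and CLOCK pair, was at 3.53, 2.98, 2.10 and 2.45 CPM in WT and at 18.2, 18.1, 10.0 and 21.2 CPM in Adam17ex, a change of 2.62 ± 0.50 (edgeR adjusted p = 0.0130). Both genes were separated between the groups, Per3 with its highest value in Adam17ex replicate 1. Usp2, a deubiquitinase under clock control, rose less, by 1.12 ± 0.26 (edgeR adjusted p = 0.0385), from 58.8 ± 23.7 to 123 ± 35.3 CPM (SD, n = 4), and its groups overlapped. Per1 was at 11.8, 9.68, 10.5 and 15.9 CPM in WT and at 39.0, 36.1, 18.1 and 26.3 CPM in Adam17ex with no overlap, but its difference of 1.25 ± 0.41 did not pass (edgeR adjusted p = 0.109).

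Cry1 (chromosome 10, 85131700 to 85185064), the other type of clock repressor, was at 27.0, 20.8, 31.5 and 25.7 CPM in WT and at 10.4, 5.16, 6.03 and 8.08 CPM in Adam17ex, or -1.83 ± 0.37 on the log2 scale (edgeR adjusted p = 0.0179). Nfil3, a repressor that competes for D-boxes, had 34 UMIs in the WT group and 2 in the Adam17ex group. Its scaled counts were 9.74 times higher in WT (exact 95% counting interval 2.50 to 83.7), and edgeR's adjusted p was 0.0484. Neither of these genes overlapped between the groups. Arntl had 39 UMIs in WT and 4 in Adam17ex, but WT replicate 4 at 3.68 CPM lay below Adam17ex replicate 3 at 4.02 CPM, and the difference of -2.37 ± 0.68 did not pass (edgeR adjusted p = 0.0743).

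The remaining tested members gave -0.54 ± 0.27 for Clock, 0.14 ± 0.40 for Per2, 0.34 ± 0.39 for Cry2, 0.83 ± 0.35 for Bhlhe40 and -0.12 ± 0.23 for Rora. Adam17ex replicate 4, whose depth and ribosomal RNA share lay in the WT range, was the highest library for Nr1d1, Nr1d2, Dbp and Ciart and not for Per1, Per3, Tef or Usp2. Without replicates 1 to 3 only Dbp and Nr1d2 of the list were called, so 7 of its 9 calls were lost. With the ribosomal RNA share as a covariate 6 members were called higher and 0 lower, and among females 5 higher and 0 lower. With the 8 PBS libraries alone it was 4 higher and 0 lower. That fit kept the sex term, and no WT PBS library was male. Its genotype effect therefore rested on Adam17ex replicates 2 and 4, here and wherever that setting is given below. The hour of dissection, absent from the labels, was not tested. The number called lower was 0 when Adam17ex replicate 2 was left out, and 1 when WT replicate 1, 3 or 4 or Adam17ex replicate 1, 3 or 4 was left out.

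**Figure D2:**
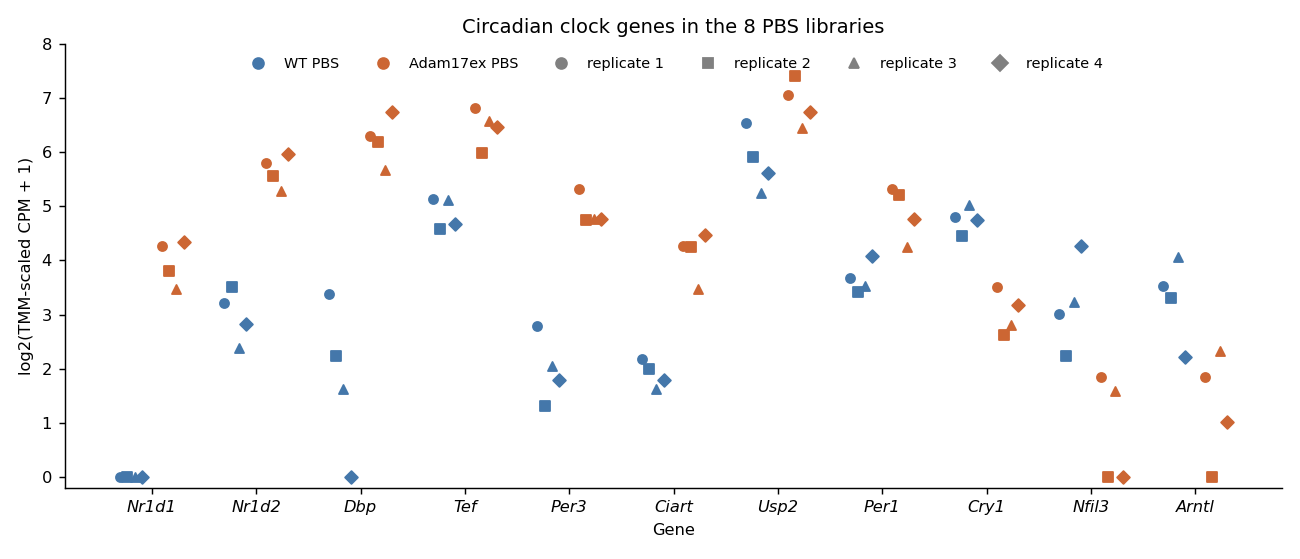
Levels of 11 circadian clock genes, as log2 of TMM-scaled CPM plus 1, in the 4 WT PBS libraries (blue) and the 4 Adam17ex PBS libraries (orange), with marker shape for the replicate. Nr1d1 is at 0 in the 4 WT libraries and at 10.0 CPM or more in the 4 Adam17ex libraries, while Cry1 and Nfil3 lie lower in Adam17ex and Arntl overlaps.

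Clock genes are read by the BMAL1 and CLOCK pair at the E-box CACGTG and by DBP, TEF and NFIL3 at the D-box TTANGTAA, so the stretch from 250 to 31 bases before the start of each clock gene was searched on both strands, using the RefSeq promoters of build GRCm38.p6. A window was listed for 17 of the 19 clock genes, with 22 windows in all. An E-box was found in 5 of these genes (Bhlhe41, Ciart, Cry1, Per1 and Tef) and a D-box in 1 (Per3). Of all 32851 windows of the same 220 bases, 5.01% and 1.89% held them. Some genes had more than 1 window, so counts of genes and shares of windows are not like for like. The called genes Nr1d1, Nr1d2, Dbp, Usp2 and Nfil3 held neither motif in their windows. The 4 windows of genes that passed the test and that held a match outside annotated exons are shown 5′ to 3′ along the gene, with E-boxes or D-boxes in capitals. Ciart at chr3:95882259-95882478 (minus strand) has 3 E-boxes, Cry1 at chr10:85185085-85185304 (minus) and Tef at chr15:81811164-81811383 (plus) have 1 each, and Per3 at chr4:151044696-151044915 (minus) has 2 D-boxes. Of the E-box genes, Ciart and Tef were higher in Adam17ex and Cry1 was lower.
Ciart: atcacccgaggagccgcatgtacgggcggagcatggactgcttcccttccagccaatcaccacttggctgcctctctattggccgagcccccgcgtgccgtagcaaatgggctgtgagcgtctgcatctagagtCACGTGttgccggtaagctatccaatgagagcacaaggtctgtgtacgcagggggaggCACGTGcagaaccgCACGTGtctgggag
Tef: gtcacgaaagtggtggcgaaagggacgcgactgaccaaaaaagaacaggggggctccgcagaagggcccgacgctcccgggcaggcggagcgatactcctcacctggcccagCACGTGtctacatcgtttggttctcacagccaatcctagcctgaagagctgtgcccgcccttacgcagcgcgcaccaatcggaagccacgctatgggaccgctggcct
Cry1: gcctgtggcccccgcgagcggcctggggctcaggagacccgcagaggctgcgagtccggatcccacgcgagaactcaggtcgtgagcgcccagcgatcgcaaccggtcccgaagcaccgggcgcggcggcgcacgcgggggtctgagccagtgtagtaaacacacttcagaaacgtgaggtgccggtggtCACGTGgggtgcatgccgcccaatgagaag
Per3: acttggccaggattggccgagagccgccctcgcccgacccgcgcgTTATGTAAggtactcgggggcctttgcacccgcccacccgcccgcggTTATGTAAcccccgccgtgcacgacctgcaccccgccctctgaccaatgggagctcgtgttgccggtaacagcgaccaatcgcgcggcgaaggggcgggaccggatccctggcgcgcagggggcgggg

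A second set of higher genes included fibroblast markers. Of 14 tested fibroblast and stellate cell markers, 3 were called higher (background 0.631%) and 0 lower, and all 14 had a positive log2 fold change, with a median of 1.19 against 0.03 over all genes. Of 10 tested endothelial markers 0 were called by edgeR, 5 had an unadjusted p under 0.05, DESeq2 called 1 of the 2 to which it gave an adjusted p, and limma-voom with quality weights called 1. Their median was 0.82 with all 10 positive. In bulk tissue, more cells of a type and more RNA per cell cannot be told apart, nor can fewer cells and less RNA per cell.

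Col6a1 (chromosome 10, 76708792 to 76726168), a chain of collagen VI in the matrix around cells, was at 7.05, 9.68, 8.40 and 9.80 CPM in WT and at 44.2, 23.2, 44.2 and 31.3 CPM in Adam17ex, or 2.08 ± 0.36 on the log2 scale (edgeR adjusted p = 0.00643). All 4 Adam17ex libraries lay above WT. Its partner chain Col6a2 rose by 1.88 ± 0.41 (edgeR adjusted p = 0.0298), but its lowest Adam17ex library, replicate 1 at 7.80 CPM, lay within the WT range of 3.68 to 12.9 CPM. Sparc, a matrix glycoprotein, was at 99.9, 97.5, 31.5 and 36.8 CPM in WT and at 101, 152, 251 and 166 CPM in Adam17ex, a change of 1.32 ± 0.33 (edgeR adjusted p = 0.0445). Its groups were separated only narrowly, and replicate 3 was highest.

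The interstitial collagens gave similar values with wider errors and did not pass: Col1a1 1.62 ± 0.50 (edgeR adjusted p = 0.0964) and Col3a1 1.28 ± 0.38 (edgeR adjusted p = 0.0868). Among called genes outside the list were the basement membrane collagens Col4a1 (1.32 ± 0.26) and Col4a2 (1.55 ± 0.36), the microfibril gene Fbn1 (2.06 ± 0.47), the pericyte gene Rgs5 (1.32 ± 0.29), the endothelial BMP receptor gene Acvrl1 (2.11 ± 0.46) and the BMP target Id1 (2.01 ± 0.47). Others were Angptl2 (2.19 ± 0.55), Igfbp6 (1.68 ± 0.39), Rgcc (1.98 ± 0.49), Rbp7 (1.98 ± 0.47) and Crip2 (1.64 ± 0.28). The actin regulators Gsn and Zyx rose by 0.94 ± 0.21 and 1.31 ± 0.30. Of these 13 genes, Col4a2, Rgs5 and Rbp7 overlapped between the groups.

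Timp3, the matrix-bound inhibitor of ADAM17, was at 47.0, 34.3, 21 and 25.7 CPM in WT and at 72.8, 90.4, 94.4 and 54.5 CPM in Adam17ex, a rise of 1.26 ± 0.30 (edgeR adjusted p = 0.0385). The lowest Adam17ex library, replicate 4, lay above all 4 WT libraries. Timp3 was not called in 10 of 23 alternatives, among them the ribosomal RNA share as a covariate, females only and the 8 PBS libraries alone. Its log2 fold change ran from 0.70 to 1.51 over the alternatives. Its relative Timp2 was at 30.2 ± 14.2 and 75.4 ± 22.4 CPM (SD, n = 4) without overlap, but did not pass (edgeR adjusted p = 0.0728).

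The summed share of the fibroblast list was 0.0722%, 0.0864%, 0.0336% and 0.0444% of UMIs in WT and 0.0592%, 0.0880%, 0.253% and 0.128% in Adam17ex, so the groups overlapped and replicate 3 was highest. That library was also highest for macrophage, class II and adipocyte markers. Over the whole macrophage list of 20 genes, 13 were tested and 11 were positive. In edgeR 0 were called and 0 had an unadjusted p under 0.05, and limma-voom called 0. DESeq2 called 0 of the 3 to which it gave an adjusted p. The summed share of the macrophage list ran from 0.0111% to 0.0627% in WT and from 0.0172% to 0.184% in Adam17ex. The part of this library's make-up in the stromal result was not tested beyond leaving it out. The number of fibroblast markers called was then 1. It was also 1 without WT replicate 3 or 4 or Adam17ex replicate 2 or 4, 7 without WT replicate 2, 6 without Adam17ex replicate 1, and 0 without Adam17ex replicates 1 to 3, where the median was 1.00. With the ribosomal RNA share as a covariate it was 0 with a median of 1.37, with the 8 PBS libraries alone 0, in females 1 and without the sex covariate 9.

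**Figure D3:**
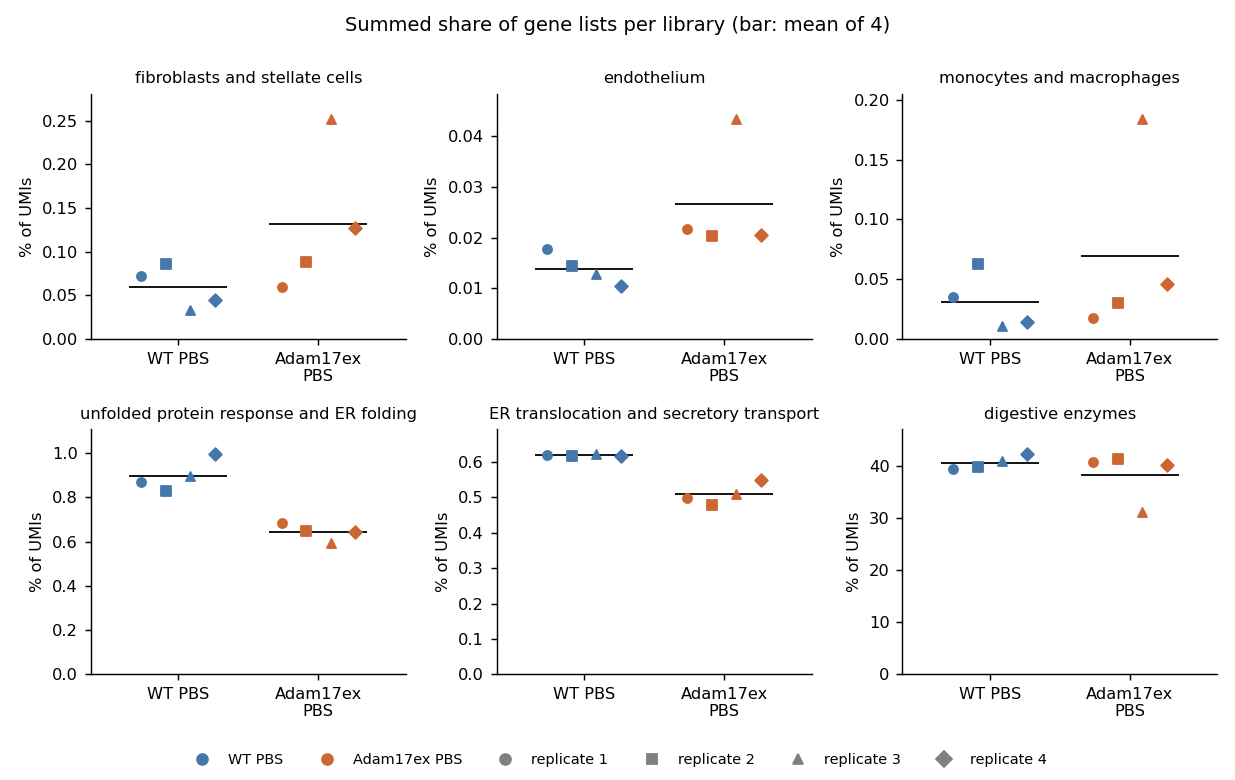
Summed share of 6 gene lists, as a percentage of all UMIs, in each PBS library, with marker shape for the replicate and a bar at the mean of 4. The ER folding and the secretory transport lists lie lower in all 4 Adam17ex libraries, while the fibroblast and macrophage shares overlap and are highest in Adam17ex replicate 3.

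A few genes of the secretory apparatus were lower. Of 30 tested genes for the unfolded protein response and ER folding, 3 were called lower (background 0.729%) and 0 higher, 22 values were negative and 8 positive, and the median was -0.25. For 6 of them all 4 Adam17ex libraries lay below all 4 WT libraries (background 6.24%), and for 1 all 4 lay above (background 4.16%). The list's values ran from -1.48 to 1.39. Among 31 tested genes for ER translocation and secretory transport 1 was called lower, 22 values were negative and 9 positive, the median was -0.28, and 8 genes lay below in all 4 libraries.

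Creld2, an ER folding factor induced by ER stress, was at 196, 264, 215 and 297 CPM in WT and at 125, 103, 56.3 and 60.6 CPM in Adam17ex, or -1.48 ± 0.26 on the log2 scale (edgeR adjusted p = 0.00694). The pancreatic ER oxidase gene Ero1lb was at 377, 334, 447 and 436 CPM in WT and at 224, 258, 117 and 128 CPM in Adam17ex, a change of -1.21 ± 0.24 (edgeR adjusted p = 0.0180). For both genes the groups were separated, and replicate 4 was among the lower 2 Adam17ex libraries. Dnajb11, a cofactor of the chaperone BiP, fell by 0.91 on the log2 scale (edgeR adjusted p = 0.0331), from 191 ± 27.1 to 99.4 ± 13.6 CPM, and Spcs3, a subunit of the signal peptidase, by 0.89 (edgeR adjusted p = 0.0397), from 138 ± 12.3 to 68.3 ± 20.3 CPM (SD, n = 4).

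The best-known stress genes of this list did not pass. Hspa5, which encodes BiP, gave -0.22 ± 0.30, Xbp1 0.02 ± 0.19 and Ddit3 0.27 ± 0.57. Sdf2l1, at -0.89 ± 0.23 (edgeR adjusted p = 0.0528), had a value close to those of Dnajb11 and Spcs3. The ER folding list took 0.868%, 0.8293%, 0.897% and 0.996% of UMIs in WT and 0.683%, 0.648%, 0.592% and 0.645% in Adam17ex. The transport list took 0.615% to 0.622% in WT and 0.498%, 0.478%, 0.510% and 0.548% in Adam17ex. Neither share overlapped between the groups, and replicate 4 lay with the other Adam17ex libraries for folding. The number of folding genes called lower was 0 with the 8 PBS libraries alone, 1 in females, and 2 with the ribosomal RNA share as a covariate or without replicates 1 to 3, where the 2 were Creld2 and Ero1lb. It was 2 without WT replicate 1, 3 or 4 or Adam17ex replicate 2 or 3, and 5 without Adam17ex replicate 1. The single call of the transport list, Spcs3, was lost in each of these settings, whereas 3 transport genes were called lower without Adam17ex replicate 4. Of 23 alternatives, Dnajb11 was not called in 9 and Spcs3 in 11.

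Psat1, an enzyme of serine synthesis, was at 97.6, 66.3, 96.6 and 110 CPM in WT and at 36.4, 31.0, 44.2 and 35.4 CPM in Adam17ex, or -1.39 ± 0.23 on the log2 scale (edgeR adjusted p = 0.00478). All Adam17ex libraries lay below WT. Wars, the tryptophanyl-tRNA synthetase gene of the same amino acid supply list, went the other way by 1.09 ± 0.24 (edgeR adjusted p = 0.0298), and its groups overlapped, with 211 CPM in replicate 4 against 62.3 to 103 CPM in the other Adam17ex libraries. Of that list's 27 tested genes these were the 2 called, 1 in each direction (background 0.631% higher and 0.729% lower).

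Digestive enzyme genes lay on both sides of 0. Of 32 tested, 0 were called by edgeR, DESeq2 or limma-voom, the smallest adjusted p in edgeR was 0.237, 4 had an unadjusted p under 0.05, and the median was -0.0007 with 16 values on each side of 0. Amy2a5, an amylase gene, gave 0.06 ± 0.24 and Cpa1, carboxypeptidase A1, -0.02 ± 0.22. Near-identical copies within the amylase and trypsin families can share reads, so single members are uncertain. By edgeR 0 of 9 tested acinar transcription factors were called (1 at an unadjusted p under 0.05), 0 of 18 duct and metaplasia genes (2) and 0 of 20 islet genes (5), the last with a median of 0.67. Of these 3 lists DESeq2 called 1 duct gene and limma-voom 0, where DESeq2 gave an adjusted p to 6, 14 and 13 of their genes. Islet shares ran from 0.498% to 1.46% in WT and from 0.560% to 1.91% in Adam17ex, with the lowest Adam17ex value in replicate 4.

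**Figure D4:**
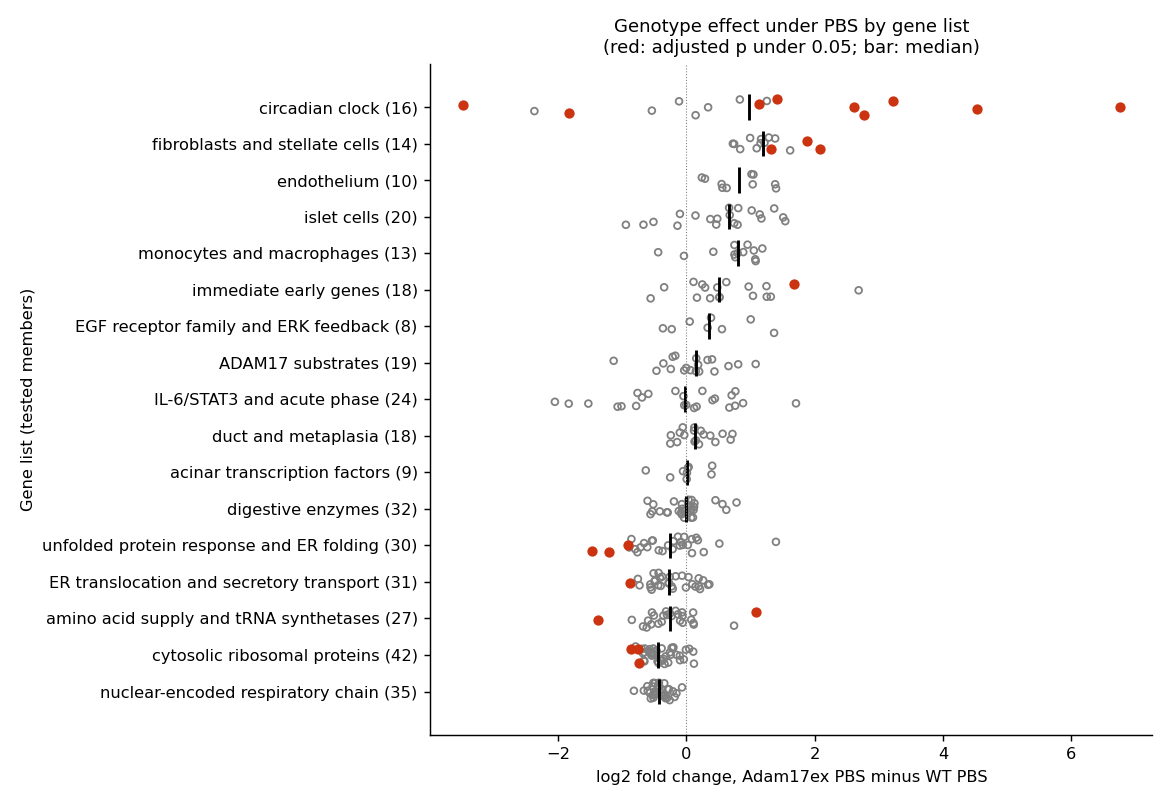
Log2 fold change between Adam17ex PBS and WT PBS for each tested member of 17 gene lists, with members past an adjusted p of 0.05 in red and the list's median as a bar. The clock list spreads from -3.48 to 6.75, the fibroblast list lies above 0, the ribosomal protein and respiratory chain lists centre near -0.44 and -0.43, and digestive enzymes centre on 0.

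Some genes of translation and some pseudogenes were lower. Of 42 tested cytosolic ribosomal protein genes 3 were called lower (background 0.729%) and 22 lay below in all 4 libraries (background 6.24%), with a median of -0.44. Rps28 fell by 0.87, Rpl5 by 0.75 and Rpl10 by 0.74 on the log2 scale (edgeR adjusted p = 0.0385 for each). Rps28 was at 377, 475, 423 and 373 CPM in WT and at 172, 176, 167 and 318 CPM in Adam17ex, with replicate 4 closest to WT. Of 645 tested processed pseudogenes, many of them copies of ribosomal protein genes that can share reads with the parent, 28 were called lower and 1 higher, with a median of -0.45. Ribosomal protein genes called lower numbered 14 with DESeq2, 12 with limma-voom, 9 with a replicate block and 14 without the sex covariate. The same settings called 76, 66, 74 and 122 pseudogenes lower.

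Of 35 tested nuclear genes of the respiratory chain 0 were called by edgeR, 14 had an unadjusted p under 0.05, and DESeq2 called 2 and limma-voom 3, but all 35 values were negative and the median was -0.43. Shares of the ribosomal protein list were 2.43%, 2.54%, 2.14% and 2.07% in WT and 1.42%, 1.46%, 1.63% and 2.01% in Adam17ex, in which replicate 4, the library without the high ribosomal RNA share, came nearest to WT. With the ribosomal RNA share as a covariate, 0 ribosomal protein genes and 0 pseudogenes were called. The same was true without replicates 1 to 3. Without any one of WT replicates 1 to 4 or Adam17ex replicates 2 or 3, 0 ribosomal protein genes were called, and without Adam17ex replicate 4, 12 were. Pseudogenes called lower numbered 7, 9, 3 and 4 without WT replicate 1, 2, 3 or 4, and 17, 2, 4 and 109 without Adam17ex replicate 1, 2, 3 or 4. The respiratory chain median was -0.08 with that covariate and -0.16 without replicates 1 to 3.

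Rpl29, counted apart from that list, differed among WT libraries. It was at 98.7 and 112 CPM in WT replicates 1 and 2, at 24.1 and 13.5 CPM in replicates 3 and 4, and at 18.2, 12.9, 16.1 and 10.1 CPM in Adam17ex, so the groups overlapped although the difference of -2.47 ± 0.62 was called (edgeR adjusted p = 0.0453). Further translation genes called lower were Eif5a (-0.76 ± 0.18) and Eif3k (-0.80 ± 0.20). Among genes of metabolism and ribosome production these were Odc1 (-0.82 ± 0.20), the rate-limiting enzyme of polyamine synthesis, the nucleotide kinase Nme1 (-0.89 ± 0.20), the ATP synthase gene Atp5g1 (-0.98 ± 0.22), the pyrophosphatase Ppa1 (-1.47 ± 0.31), Cluh (-1.11 ± 0.27) and the ribosome assembly gene Grwd1. The last had 30 UMIs in WT and 3 in Adam17ex, 5.73 times higher in WT after scaling (exact 95% counting interval 1.78 to 29.3).

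On the list of nuclear-retained and ribosomal-like RNA 2 of 12 tested genes were called, both higher (background 0.631%). With the ribosomal RNA share as a covariate 0 were called and the list's median went from 0.52 to -0.003, and 0 were called without replicates 1 to 3, with the 8 PBS libraries alone or without Adam17ex replicate 2. It was 1 in females and without any one of WT replicates 1 to 4 or Adam17ex replicates 1 or 3. Lars2, whose gene holds a stretch that resembles ribosomal RNA in the mouse, was at 578, 310, 389 and 586 CPM in WT and at 3082, 1738, 2292 and 626 CPM in Adam17ex, or 1.76 ± 0.42 on the log2 scale (edgeR adjusted p = 0.0397). Its order over the 4 Adam17ex libraries was that of their ribosomal RNA shares, with replicate 4 lowest in both and just above the WT range. The nuclear RNA Neat1 was at 1112, 955, 1137 and 1307 CPM in WT and at 1956, 3191, 1802 and 1970 CPM in Adam17ex, a rise of 1.12 ± 0.21 (edgeR adjusted p = 0.0130). All Adam17ex libraries lay above WT, with replicate 2 highest and replicate 4 near replicates 1 and 3.

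Mt2 and Slc30a2 encode a metallothionein, which binds zinc, and a zinc transporter of secretory vesicles. Mt2 (chromosome 8, 94172664 to 94173568) was at 90.5, 123, 96.6 and 67.4 CPM in WT and at 161, 310, 203 and 340 CPM in Adam17ex, or 1.63 ± 0.27 on the log2 scale (edgeR adjusted p = 0.00456). Slc30a2 (chromosome 4, 134343181 to 134354484) was at 4.70, 8.94, 7.35 and 8.58 CPM in WT and at 20.8, 28.4, 34.2 and 36.4 CPM in Adam17ex, a change of 2.16 ± 0.34 (edgeR adjusted p = 0.00329). Both genes were separated between the groups, with replicate 4 the highest library. They and the clock genes Dbp and Nr1d2 were the 4 named genes called under every alternative in which they could be tested. Mt1, the neighbouring metallothionein gene, did not pass at 1.04 ± 0.30 (edgeR adjusted p = 0.0720).

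Among other higher genes, Ptms, which encodes parathymosin, was at 255, 144, 194 and 249 CPM in WT and at 882, 718, 681 and 423 CPM in Adam17ex, or 1.66 ± 0.26 on the log2 scale (edgeR adjusted p = 0.00329), with replicate 4 the lowest of its group but above WT. Jun was at 16.5, 23.1, 18.9 and 22.1 CPM in WT and at 36.4, 127, 50.2 and 37.4 CPM in Adam17ex (1.68 ± 0.41), the 1 called of 18 tested immediate early genes (background 0.631% higher). Scd1, the stearoyl-CoA desaturase, rose by 1.81 ± 0.44 and its groups overlapped, with 269 and 381 CPM in Adam17ex replicates 3 and 4 against 28.3 to 120 CPM in WT. It was the 1 called of 9 tested adipocyte markers (background 0.631% higher), whose median was 1.13 with 8 positive. Their summed share was highest in the same libraries, 0.228% and 0.176% of UMIs in replicates 3 and 4 against 0.0270% and 0.0508% in replicates 1 and 2 and 0.0220% to 0.105% in WT. Scd1 was not called in 11 of 23 alternatives, among them DESeq2 and limma-voom, and the part of adipocytes in its value was not tested. The glucocorticoid-responsive kinase gene Sgk1 (1.24 ± 0.26) and Sesn1 (1.67 ± 0.42) were the 2 called of 18 tested genes of the fasting list (background 0.631% higher), and Sgk1 overlapped between the groups.

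Other genes called higher were Klk1b11 (2.13 ± 0.50), a kallikrein with near-identical relatives, Arl5b (1.49 ± 0.33), Rptor (1.47 ± 0.36), a subunit of mTORC1, the desmosome-associated Ppl (1.44 ± 0.32), Znfx1 (1.69 ± 0.43), Ypel3 (1.37 ± 0.30), Stard3 (1.27 ± 0.30), Fchsd2 (1.26 ± 0.30), Stat6 (1.23 ± 0.27), Gpatch8 (1.23 ± 0.28), the polarity gene Pard3 (1.22 ± 0.27), Rtn4 (1.19 ± 0.26) and Nub1 (1.06 ± 0.26). The groups overlapped in Klk1b11 and did not in the other 12 of these genes.

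Tuba4a, an α-tubulin, was at 173, 136, 175 and 224 CPM in WT and at 78.0, 59.4, 70.3 and 67.7 CPM in Adam17ex, or -1.44 ± 0.22 on the log2 scale (edgeR adjusted p = 0.00329). The groups lay clear of each other and replicate 4 did not differ from the rest of its group. Others lower were Arhgef10l (-1.81 ± 0.37) and Arhgdig (-0.85 ± 0.21), the water channel Aqp8 of the acinar apical membrane (-2.24 ± 0.55), the apoptosis inhibitor Aven (-1.79 ± 0.43), vitronectin (Vtn, -1.46 ± 0.33), dystroglycan (Dag1, -1.16 ± 0.21), Fxyd1 (-0.97 ± 0.24), the ferritin light chain gene Ftl1 (-0.78 ± 0.20) and the cilium transport gene Ift20 (-0.72 ± 0.17). None of these 10 genes overlapped between the groups.

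Genes tied to ADAM17 itself gave few calls. Adam17 (ENSMUSG00000052593, chromosome 12, 21323509 to 21373632) had 12, 16, 5 and 8 UMIs in WT and 1, 1, 3 and 5 in Adam17ex, and at -1.21 ± 0.49 it did not pass (edgeR adjusted p = 0.210), the groups overlapping. Under cerulein it had 17, 10, 27 and 14 UMIs in WT and 3, 4, 2 and 6 in Adam17ex, or 14.3 ± 3.85 against 3.30 ± 0.71 CPM (SD, n = 4), and was called lower at -2.05 ± 0.40 (edgeR adjusted p = 0.00138) without overlap. The difference between the treatments was not called (edgeR adjusted p = 0.485). Reads lie at the transcript's 3′ end, and whether they cover the altered part of the allele is not given in the sources used here. Of 12 tested sheddases, iRhoms and TIMPs, Timp3 was the 1 called (background 0.631% higher), and Rhbdf2, which encodes iRhom2, gave -0.26 ± 0.54. Among 19 tested ADAM17 substrates 0 were called by edgeR or limma-voom, and DESeq2 called 0 of the 13 to which it gave an adjusted p. In edgeR 1 had an unadjusted p under 0.05, the smallest adjusted p was 0.206 and the median was 0.15. The EGF receptor gene Egfr gave -0.23 ± 0.38, the ligand Hbegf 0.20 ± 0.50, Il6ra -0.04 ± 0.27 and Il6st -0.004 ± 0.25.

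Of 8 tested EGF receptor family and feedback genes 0 were called by edgeR or limma-voom, and 2 had an unadjusted p under 0.05 in edgeR. DESeq2 called 1 of the 4 to which it gave an adjusted p. Errfi1, a feedback inhibitor of the EGF receptor, averaged 10.7 CPM in WT and 27.7 CPM in Adam17ex without overlap (edgeR adjusted p = 0.0545). The interleukin-6 and acute phase list gave 0 of 24 (8 at an unadjusted p under 0.05) and NF-κB targets 0 of 11 (0) by edgeR, and limma-voom called 0 in either. DESeq2 also called 0, but gave an adjusted p to only 12 genes of the former list and 2 of the latter. Reg3b, an acute phase gene of acinar cells, gave -1.07 ± 0.76. The cytokines could not be read at this depth: Il6 had 1 UMI in WT and 0 in Adam17ex, Tnf 1 and 1, Areg 8 and 6, and Tgfa 15 and 8. Within 5 Mb of Adam17, where the allele could carry linked sequence, 1 of 16 tested genes was called, Odc1 (background 0.729% lower).

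Whether the genotype effect under PBS was also present in the inflamed pancreas was asked with the 8 cerulein libraries, in which 799 of 8236 genes (9.7%) were called between Adam17ex and WT. The comparisons share no library. Of the 112 genes called under PBS, 11 (9.82%) were also called under cerulein, close to the 9.7% of all tested genes. The overlap is therefore not read as a result about the PBS calls. Of the 11, 3 went in the same direction (Jun, Neat1 and Rpl29). The other 8 went in the opposite one (Arhgdig, Arhgef10l, Ero1lb, Ftl1, Ift20, Rps15a-ps2, Rtn4 and Zyx). The 3 made up 2.68% of the PBS calls and 0.375% of the cerulein calls. Jun gave 1.07 ± 0.31 and Neat1 0.93 ± 0.20 under cerulein, with no called difference from their PBS values. Their count was 0 without Adam17ex replicate 2, 1 without WT replicate 1 or 2 or Adam17ex replicate 3, and 21 without Adam17ex replicate 4.

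The difference between the treatments, tested as the interaction of genotype and treatment, was called for 59 of the 112 and for 496 of all 8236 tested genes (6.02%). The 112 were selected for a large effect under PBS, which favours a called difference from cerulein, so nothing is read from that count. Dbp gave 4.53 ± 0.44 under PBS and -0.95 ± 0.59 under cerulein, where WT stood at 5.07 and Adam17ex at 2.53 CPM on average. Nr1d2, Per3, Nr1d1 and Tef likewise had negative values under cerulein that did not pass, and Cry1 and Nfil3 positive ones, and the difference was called for all 7 of these genes. Of the 16 tested clock genes 2 were called higher in Adam17ex under cerulein and 0 lower. Over all tested genes 9.7% were called there in either direction, so nothing is read from this count. The 2 were Bhlhe40 at 1.99 ± 0.25 (edgeR adjusted p = 1.13e-05) and Rora at 1.23 ± 0.22 (edgeR adjusted p = 0.000860). Ciart gave 1.91 ± 0.73 under cerulein and its difference was not called. Ero1lb, lower under PBS, was higher in Adam17ex under cerulein by 1.32 ± 0.24 (edgeR adjusted p = 0.000700), and Zyx, higher under PBS, was lower by 1.14 (edgeR adjusted p = 0.000411). No cerulein library had the ribosomal RNA share of Adam17ex PBS replicates 1 to 3, the highest being 5.04%.

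**Figure D5:**
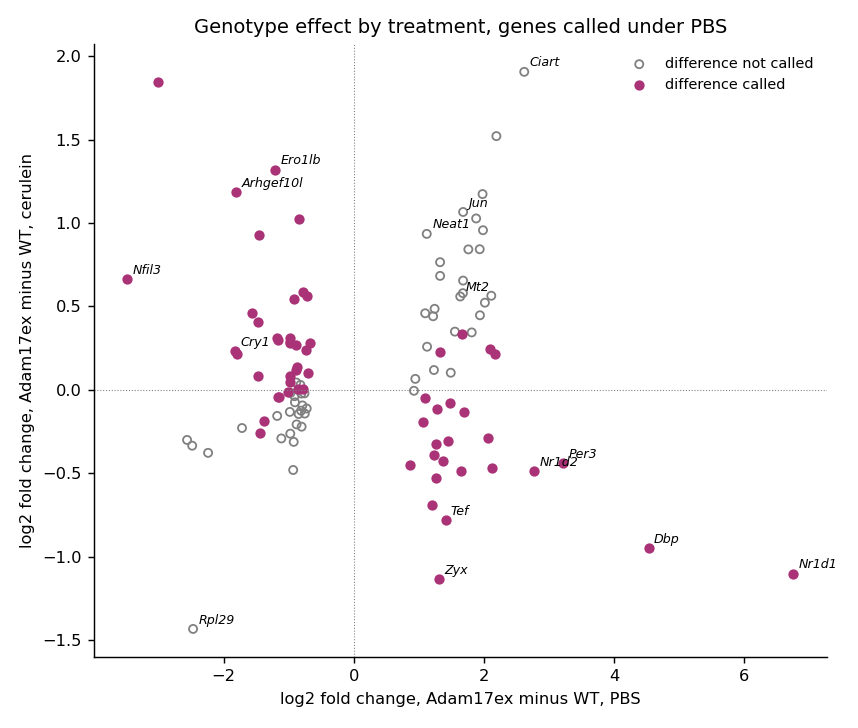
Log2 fold change of Adam17ex against WT under PBS (horizontal) and under cerulein (vertical) for the genes called under PBS, filled where the difference between treatments was called. Dbp and Nr1d1 lie far to the right at 4.53 and 6.75 and below 0 under cerulein, at -0.95 and -1.10, while Neat1 and Jun lie above 0 under both.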

How the data were processed

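Per the labels' protocols, 30 ng of total RNA per sample was reverse-transcribed from the poly(A) tail with a 10 bp unique molecular identifier (UMI) and read with 101 bp. The deposited values are whole-number counts per gene and library, not normalized, and cover 24019 genes. GRCm38, mm10, R 4.1.2, edgeR 3.36.0 and limma 3.50.0 appear in the submitters' processing notes. For the aligner and for UMI collapsing, nothing is given in the sources used here. Of the identifiers, 23976 were in the GENCODE M21 table.

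Genes were kept by filterByExpr (minimum count 10), leaving 8236, and scaled by TMM. edgeR 4.0.16 (R 4.3.3) quasi-likelihood models over all 16 libraries had a term per group and sex (11 residual degrees of freedom). Genes with an adjusted p under 0.05 were called. On counts simulated for this comparison with 8236 genes, 30 of 100 changes of 2-fold and 85 of 100 of 4-fold were recovered. In that simulation 4 unchanged genes were also called. These rates hold for the simulated counts only. They are not the power in the real libraries, where some of the Adam17ex PBS libraries stood apart. In the shallowest library 1 UMI was 2.20 CPM, before scaling. The 12 library pairs within the PBS groups differed by more than sampling noise.

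The comparison, the 38 gene lists and the naming rule were chosen with earlier results of these data known. Named genes were the 15 highest and 15 lowest fold changes among calls that carry an official symbol and average 10 or more counts, up to 4 per list by smallest p, genes called the same way under both treatments, tested genes within 5 Mb of Adam17 and a fixed set around ADAM17. Further called genes with an official symbol were named after their values were seen. Not all of the selection is described, and some genes are not reported here. The alternatives were RLE and upper-quartile scaling, totals without enzymes or ribosomal RNA genes, DESeq2 1.42.0, limma-voom (limma 3.58.1), other filters, other covariates, subsets of libraries, thinning to 455547 UMIs and leaving out each library.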

Additional observations from a re-analysis of the deposited data

Results flagged for a closer look

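In groups of 4 libraries, a value was singled out when its gap to the nearest other took up more of the group's range than the 95% critical value of Dixon's test allows. Of 164 groups looked at, 9 (5.49%) had such a value, and chance gives about 1 in 20. Adam17ex PBS replicate 4 held 1009634 UMIs against 455547 to 492878 in its group, and 318 CPM of Rps28 against 167 to 176. Adam17ex replicate 2 was apart with 127 CPM of Jun (others 36.4 to 50.2), 3191 CPM of Neat1 (1802 to 1970), 80.0 CPM of Sesn1 (40.4 to 46.8) and 49.1 CPM of Col4a1 (60.3 to 62.4). Replicate 1 had 39.0 CPM of Per3 (25.8 to 26.3). WT PBS replicate 3 had 0 CPM of Angptl2 (5.96 to 7.05) and 485 CPM of Vtn (297 to 323).

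For 43 of the named genes called under PBS, the genotype effect differed between PBS and cerulein by the interaction test of edgeR. Each value is the log2 genotype effect under PBS minus that under cerulein. In the clock list it was Cry1 -2.07, Dbp 5.48, Nfil3 -4.15, Nr1d1 7.85, Nr1d2 3.26, Per3 3.66 and Tef 2.19. Among matrix, vessel and adhesion genes it was Col4a1 1.10, Col6a1 1.84, Crip2 2.13, Fbn1 2.35, Timp3 1.58 and Zyx 2.44, all higher in Adam17ex under PBS. In the ER folding and amino acid supply lists it was Creld2 -1.88, Dnajb11 -1.46, Ero1lb -2.54, Psat1 -1.20 and Wars 1.14. For translation and energy genes it was Atp5g1 -1.26, Nme1 -1.15, Ppa1 -1.55, Rpl10 -0.98 and Rps28 -1.002. Among the remaining genes with a positive difference it was Fchsd2 1.79, Klk1b11 2.60, Nub1 1.25, Ppl 1.75, Ptms 1.32, Rptor 1.55, Rtn4 1.89, Slc30a2 1.95, Stard3 1.39, Stat6 1.62, Ypel3 1.80 and Znfx1 1.82, and among those with a negative one Arhgdig -1.87, Arhgef10l -3.00, Aven -2.01, Dag1 -1.11, Ftl1 -1.37, Ift20 -1.28, Tuba4a -1.18 and Vtn -2.39. The cause of these differences was not tested.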

How the results depend on the processing

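Called genes numbered 112 (52 higher, 60 lower, 3 called the same way under cerulein). They were 232 (80, 152, 12) with DESeq2, 219 (90, 129, 8) with limma-voom and quality weights, 331 (132, 199, 26) with no filter on low counts, 406 (169, 237, 19) without the sex covariate, 230 (97, 133, 11) with a replicate block, 21 (16, 5, 0) with the ribosomal RNA share as covariate, 22 (17, 5, 1) in females and 15 (13, 2, 1) without Adam17ex PBS replicates 1 to 3. The 8 PBS libraries alone gave 14 (9, 5), with a genotype effect that rested on the female Adam17ex replicates 2 and 4. A minimum count of 30 gave 13 called the same way, and thinning to equal depth 34 lower. Leaving out 1 library gave 30 to 370 called, 16 to 131 higher, 12 to 239 lower and 0 to 21 the same way. Where an arm kept 1 library, that library is assumed to vary like the others. The cause of these changes was not tested. RLE, upper-quartile, enzyme-free and ribosomal-RNA-free scaling stayed within 1.5 times of these counts. Over the 23 alternatives, 1730 values were obtained for 76 named called genes and for Arntl, Per1 and Adam17, which were not called. Of these values 0 reversed, and 4 of the genes were called in all of theirs. The called genes were selected for their effect in these same libraries, so a reversal was unlikely. Nothing is read from its absence. Deviations of same-numbered PBS libraries correlated at -0.002, -0.113, -0.224 and -0.102, within the range of -0.261 to 0.227 of differently numbered ones. These values cannot decide whether the numbers pair samples, and the labels do not say. At 455547 UMIs, 3 UMIs are 6.59 CPM before scaling, and smaller levels could not be told from 0 in that library.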
